A study of Mus musculus with 8 samples.

Results

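The cytosolic ribosomal protein genes were examined across mouse peritoneal macrophages exposed to LPS and to the compound C498-0670 (C498). Members were the rows of the gene table whose symbol begins with Rpl or Rps and a digit, or is Rplp0, Rplp1, Rplp2 or Rpsa. Rows named as pseudogenes (-ps) and the S6 kinases (Rps6k) were left out. The rule used names only and no measured value, and it took 94 of 55801 genes, of which 55 carried names of the large subunit and 39 names of the small subunit. It also took Rps19bp1, a partner of Rps19, and retrogenes such as Rps27rt, and 7 of the 94 are annotated as processed pseudogenes. The macrophages came from male C57BL/6 mice and were drawn from the peritoneum after thioglycollate. There were 4 groups of 2 samples. NC received the vehicle (DMSO), LPS received 100 ng/ml lipopolysaccharide for 4 h, C498 received 15 µM of the compound, and C498+LPS received the compound 0.5 h before LPS. C498 is known here by its code name, and it came out of a screen for inhibitors of STAT and NFκB signalling. No source used here states that the 2 samples of a group came from separate animals, so p-values measure only the spread between these samples, which may be technical.

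A ribosome is built from ribosomal RNA and a set of proteins, each encoded by a gene of its own. The messenger RNAs of these proteins, with those of elongation factors, begin with a C and a run of pyrimidines (the 5′ terminal oligopyrimidine, or TOP, motif), through which mTORC1 and LARP1 adjust their translation. Because these mRNAs are short and abundant, they have been copied back into the genome many times as processed pseudogenes and retrogenes without introns, some of which keep the coding sequence of the parent letter for letter.

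The start-site windows below show the TOP tract in capitals where it was found, for members that recur in the results and for contrast. Each window holds the 20 bases before and the first 10 bases after the start in RefSeq (GRCm38.p6). Where a gene had several starts, a start with a tract was shown if present.
Rps6, chr4:86857358-86857387, minus strand: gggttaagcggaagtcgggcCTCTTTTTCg
Rps24, chr14:24490658-24490687, plus strand: acgcccccgcgctggggtcCTTCCTTgcgc
Rpl22l1, chr3:28805488-28805517, plus strand: cgtgcgtgcggcgcaagcccgttCTCTTCC
Rplp0, chr5:115559447-115559476, plus strand: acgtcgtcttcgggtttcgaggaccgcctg
Rps4x, chrX:102189382-102189411, minus strand: aaagtctgaggctgggcggagcaacccagg
In Rps6 the tract began at the first transcribed base. A tract was counted where a C followed by at least 4 pyrimidines, 5 bases in all, began within 10 bases of the start on the transcribed strand. It was present for 42 of 69 members with an entry (60.9%), against 34.4% of all 27025 genes in the table. The letters CCGGAAG, read on both strands and over 250 bases before to 50 after the start, were present for 37.7% of these members and 9.93% of all genes. A gene with several starts was counted if any of them matched. Both are matches of letters and not measured sites. The starts used in these cells were not measured, so members without a tract here, such as Rplp0 and Rps4x, may still carry the motif.

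The coding starts below belong to members with large row changes in C498+LPS against LPS, each set against an expressed copy elsewhere in the genome. The first 30 coding bases (GENCODE M21, GRCm38) are given with the start codon in capitals.
Rps23: ATGggcaagtgtcgtggtctccgaactgcc
Rps13: ATGggtcgcatgcacgctcccgggaagggc
Rpl12: ATGccgcccaagttcgaccccaacgaggtc
Rps6: ATGaagctgaacatctccttccccgccacc
The same 30 bases stand in Rps23-ps1 (chr3:37714740-37715164), Rps13-ps2 (chr7:88530446-88530898), Gm10275 (chr10:29698746-29699380) and Rps6-ps4 (chr2:75191073-75191822), all annotated as processed pseudogenes. Rps13-ps2 held the whole 453-base coding sequence of Rps13 with 0 mismatches, Gm10275 the whole 495 bases of Rpl12, and Rps6-ps4 the whole 747 bases of Rps6. Rps23-ps1 held 425 of the 429 coding bases of Rps23, also with 0 mismatches. Reads from such stretches could belong to the gene or to the copy. Matching all pseudogene and retrogene transcripts gave 85 copies with a mean TPM of at least 1, belonging to 46 members. A TPM value is corrected for transcript length and scaled to the same total in each sample, so levels can be compared between genes.

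Ribosomal protein mRNAs were among the most abundant in these cells. The 94 members held 8.38% and 10.3% of all TPM in the NC samples, 7.88% and 8.56% with LPS, 9.86% and 10.1% with C498, and 9.56% and 10.96% with C498+LPS. Only the C498 and C498+LPS groups lay wholly above the LPS group, and NC overlapped all other groups. With the copies included, the share was 10.6% and 11.3% with LPS, and 12.3% and 13.7% with C498+LPS. The copies outside the 94 made up 2.50% to 2.97% of all TPM. A total over samples in TPM is fixed, so depth is unknown and no counting interval can be given. In bulk samples such as these, fewer cells of a type and less RNA per cell cannot be told apart.

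**Figure D1:**
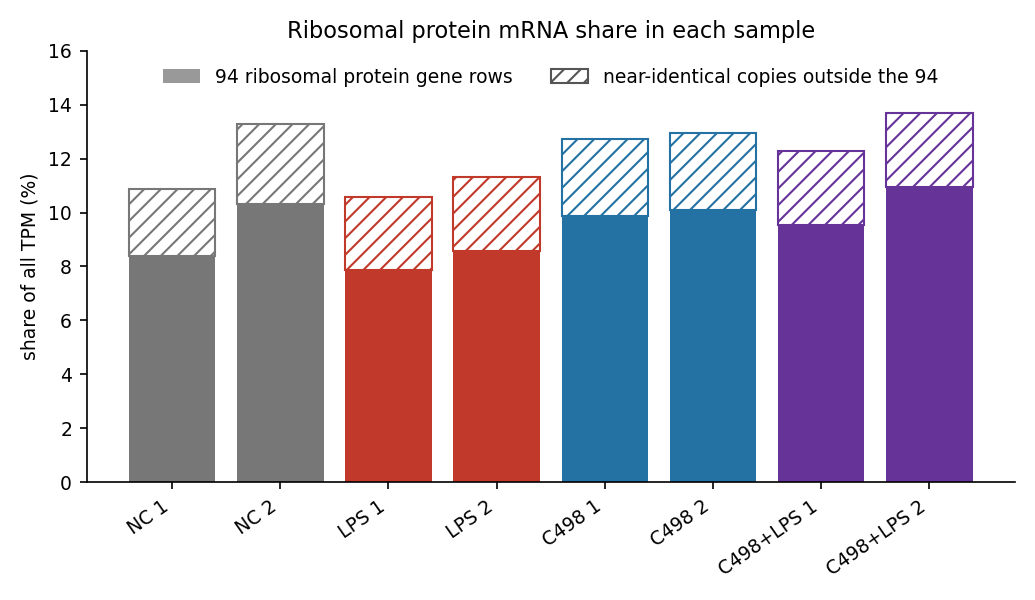
Share of all TPM (%, vertical axis, from 0) in each of the 8 samples, filled for the 94 ribosomal protein gene rows and hatched for their near-identical copies outside the 94. The filled share ran from 7.88% to 10.96%, and replicate 2 was above replicate 1 in every group.

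Other values moved with the treatments, and their part in the results was not tested. Of 6 macrophage markers all were detected, with a summed TPM of 19702 to 20248 in NC, 16512 to 17157 with LPS, 15183 to 15346 with C498 and 10583 to 12373 with C498+LPS. The 4 fibroblast markers summed to 145 to 190 TPM in the 4 samples without C498 and to 603 to 887.8 TPM in the 4 with it, and the 6 neutrophil markers to 184 to 225 and 115 to 139 TPM. The 3 mesothelial markers were low and summed to 0.58 to 1.05 TPM without C498 and to 3.42 to 7.62 TPM with it, and B cell, T cell and eosinophil markers each summed to under 13 TPM. The nuclear-retained RNAs Malat1 and Neat1 summed to 371 and 237 TPM in NC, 182 and 164 with LPS, 236 and 284 with C498, and 249 and 158 with C498+LPS, so replicate 1 of NC, where the ribosomal protein share was the lower, had the higher sum. Neat1 was called lower in LPS against NC (log2 -0.92) and in C498 against NC (log2 -1.13). Malat1 was called in neither, with log2 -0.51 in LPS against NC and 0.83 in C498 against NC. Mitochondrially encoded genes held 1.80% to 2.39% of TPM without C498 and 3.01% to 4.60% with it. Replicate 2 also stood above replicate 1 for ribosomal proteins: 81 of 86 tested members were higher in replicate 2 of NC and likewise 81 of 86 in C498+LPS, with median differences of 0.27 and 0.20 on the log2 scale. In LPS 64 of 86 were higher in replicate 2 and in C498 55 of 86, with median differences of 0.093 and 0.030. Of all 12189 tested genes, 3505 were higher in replicate 2 of NC, 4191 of LPS, 5782 of C498 and 5019 of C498+LPS. Their median differences were -0.20, -0.079, -0.0064 and -0.051.

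Of the 94 members, 86 had a mean TPM of at least 1 and were tested. Their mean levels ran from 6.46 to 4376 TPM with a median of 1014 TPM, and 46 of them exceeded 1000 TPM. The highest was Rplp1, an acidic protein of the large subunit stalk that recruits elongation factors, at 3806 and 4418 TPM in NC, 3703 and 3909 with LPS, 4773 and 4861 with C498, and 4306 and 5229 with C498+LPS. Next came Rpl41, the smallest ribosomal protein, with a mean of 3445 TPM, then Rps14 (2650 TPM), Rps27 (2345 TPM), Rps12 (2323 TPM), Rps10 (2206 TPM), Rpl36 (2151 TPM) and Rpl26 (2003 TPM). These 8 held 22.8% of the members' TPM. The order is that of single rows, and with copies summed the Rps12, Rps28, Rpl31, Rps23, Rpl27 and Rpl10 families also stood above Rps14. Of the 8, only Rps12 was called in any comparison.

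The 8 members that were not tested were paralogues or retrogenes by name. Rpl10l, Rpl32l, Rps3a2, Rps3a3 and Rps23rg1 were listed at 0 in all 8 samples, and Rpl3l, Rpl6l and Rpl39l did not exceed 0.86 TPM. In the rows of each paralogue pair the parent form was the higher, except for Rpl36a, whose row stood at 215 to 331 TPM against 501 to 706 TPM for Rpl36al. With copies summed that exception reversed, at 956 to 1658 TPM for the Rpl36a family and 501 to 708 TPM for Rpl36al. Rpl3, of the peptidyl transferase centre region, was at 565 to 784 TPM while Rpl3l, known from muscle, was at most 0.08 TPM. Rps4x stood at 890 to 1216 TPM and Rps4l at 16.8 to 27.2 TPM. Rpl22 stood at 905 to 1161 TPM and its paralogue Rpl22l1 at 95.1 to 247 TPM. Rps27l, a p53-regulated paralogue of Rps27, was at 393 to 572 TPM and Rpl7l1, a nucleolar relative of Rpl7, at 49.8 to 55.9 TPM.

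The tests below are limma on log2(TPM + 1), and a gene is called where its p, adjusted by Benjamini-Hochberg over 12189 genes, is 0.05 or less. The first comparison asks what LPS did to these genes. Ribosomal protein genes changed little with LPS: 1 member was called higher and 5 lower, while of all genes 9.84% were called higher and 19.8% lower. Their median change was -0.17 on the log2 scale, and that of all tested genes was also -0.17. The spread differed, since 79 of the 86 members were below 0, against 7672 of 12189 genes. Of the called members Rps27rt alone changed 2-fold or more, and 12.2% of all genes were called with such a change. Rpl37rt, a low retrogene row, had log2 -1.01, was not called, and its groups overlapped (0.82 and 14.6 TPM in NC, 1.95 and 1.39 TPM with LPS).

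Rps6, the small subunit protein phosphorylated by S6 kinases, fell from 670 and 808 TPM in NC to 490 and 525 TPM with LPS, a log2 change of -0.54 (SE 0.13, limma adjusted p = 0.020). The groups did not overlap. Rps19, the protein most often mutated in Diamond-Blackfan anaemia, went from 1880 and 2141 TPM to 1495 and 1469 TPM (log2 -0.44, limma adjusted p = 0.020). Rps24, also of the small subunit, went from 1436 and 1697 to 1154 and 1249 TPM (log2 -0.38, limma adjusted p = 0.029). Rpl12, of the stalk base, had log2 -0.56, from 30.5 and 33.7 to 21.1 and 21.9 TPM. Rps27rt, a retrogene with the whole coding sequence of Rps27, went from 311 and 257 to 137 and 108 TPM (log2 -1.21). Rpl24, of the large subunit, rose from 766 and 929 TPM to 1072 and 1071 TPM (log2 0.35, limma adjusted p = 0.045), the only member called higher.

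With each copy summed into its parent, 1 family was called higher and 3 lower, against 9.95% and 20.0% of all genes. Rpl24, Rps19 and Rps24 kept their calls, and those of Rps6 and Rpl12 were lost. The third family lower was Rpl36a (log2 -0.47, limma adjusted p = 0.039), whose row was not called (log2 -0.28). Rps27rt entered the Rps27 family, which was not called (log2 -0.37, limma adjusted p = 0.12). The Rps6 family stood at 1084 ± 70.4 TPM in NC and 1082 ± 38.7 TPM with LPS (SD, n = 2 each). The count of members lower with LPS was 23 without NC replicate 1 (26.7%, against 16.7% of all genes in that fit), 0 without NC replicate 2 (22.6% of all genes) or either LPS sample (8.98% and 8.75%), and 2 without either C498 sample (15.2% and 15.3%). Centring each sample on its median gene left 0 higher and 1 lower, both under the shares of all genes in that fit, with a median of -0.0045.

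C498 given alone was compared with NC. Here 6 members were called higher and none lower, against 9.29% and 6.19% of all genes, so nothing particular to the members is read from the count. Their median change was 0.11 (all genes 0.014). Rpl12 rose from 30.5 and 33.7 TPM to 74.5 and 63.4 TPM (log2 1.08, SE 0.16, limma adjusted p = 0.0061), the only called member past 2-fold, where 7.00% of all genes were called and past it. Rpl37rt had log2 1.13, with overlapping groups, and was not called. Rpl27, of the large subunit, went from 356 and 375 to 470 and 605 TPM (log2 0.54). Rps2, at the mRNA entry side of the small subunit, rose from 1433 and 1547 TPM to 1910 and 2178 TPM (log2 0.45, limma adjusted p = 0.025). Rpl7a rose from 972 and 901 TPM to 1236 and 1223 TPM (log2 0.39) and Rpl4 from 666 and 616 TPM to 845 and 822 TPM (log2 0.38). Rpl3 was the sixth member, with log2 0.30. In each of these 6 both C498 samples lay above both NC samples. They were picked by their call, so this adds no support. It also held for members that were not called, such as Rplp1 and Rps14.

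In family sums, 4 were called higher and 1 lower, with 9.40% and 6.39% of all genes called. Rps2, Rpl7a, Rpl4 and Rpl3 were the 4. The calls of Rpl12 and Rpl27 were lost, with log2 changes of 0.31 (limma adjusted p = 0.090) and 0.049 (limma adjusted p = 0.74) in their family sums. The family called lower was Rpl38, at 2984 ± 360 TPM in NC and 1961 ± 101 TPM with C498 (SD, n = 2 each, log2 -0.60), of which the Rpl38 row itself had log2 -0.19. Without NC replicate 1 the median change of the rows was -0.047. Fewer rows were called higher when any single sample of NC, LPS or C498 was left out. In each of those fits the members' share lay under that of all genes. Centred on the median gene, 1 row was higher and 1 lower (9.29% and 9.94% of all genes), and the median was -0.013. With quantile normalization 8 were higher and 1 lower (10.6% and 10.1% of all genes).

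In LPS-treated cells C498 gave the largest number of called members of the 5 comparisons. Comparing C498+LPS with LPS, 26 of 86 members (30.2%) were called higher and none lower, against 9.08% and 7.70% of all tested genes. Of the 26, 14 belonged to the large and 12 to the small subunit. The median member was 0.33 higher on the log2 scale (all genes 0.0065), and 79 of 86 were above 0. This excess over all genes was not seen when either LPS sample or C498+LPS replicate 2 was left out, after centring on the median gene, or without the variance trend. Most changes were small: 16 of the 26 were under 0.5, and 4 of them reached 2-fold (7.57% of all genes were called and did).

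**Figure D2:**
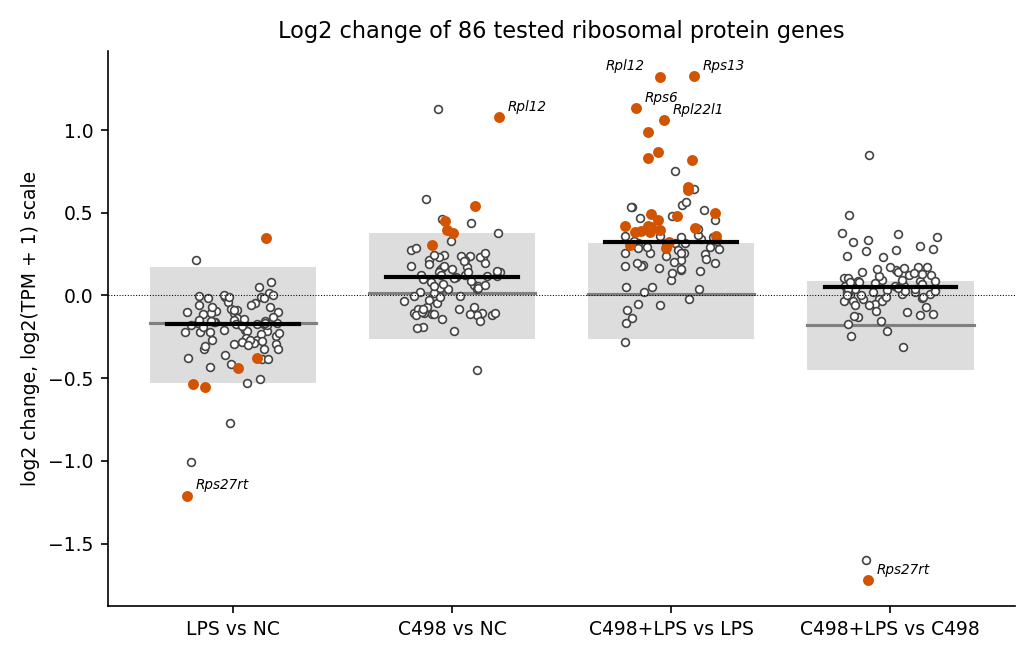
Log2 change, on the log2(TPM + 1) scale, of each of the 86 tested ribosomal protein genes in 4 comparisons. Filled points were called, open points were not, black bars are member medians, and grey boxes with a grey line give the middle 50% and the median of all 12189 genes. The member median lies on the grey line for LPS against NC and at the upper edge of the box for C498+LPS against LPS.

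The 5 largest changes were in Rps13, Rpl12, Rps6, Rpl22l1 and Rps23. Rps13, of the small subunit, stood at 134 and 155 TPM with LPS and 288 and 457 TPM with C498+LPS (log2 1.33, SE 0.31, limma adjusted p = 0.029). Rpl12 stood at 21.1 and 21.9 against 48.0 and 63.6 TPM (log2 1.32, SE 0.16, limma adjusted p = 0.0023). Rps6 stood at 490 and 525 against 1037 and 1199 TPM (log2 1.14, SE 0.13, limma adjusted p = 0.0021). In all 3 genes, which were picked by their calls, both C498+LPS samples were above both LPS samples. They were also above both NC samples. Rpl22l1 stood at 95.1 and 102 against 173 and 247 TPM (log2 1.06, limma adjusted p = 0.0075), while Rpl22 went from 908 and 905 to 939 and 1161 TPM (log2 0.20, not called). Rps23, of the decoding centre, stood at 207 and 174 against 349 and 409 TPM (log2 0.99, limma adjusted p = 0.0084).

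Among members without sizeable copies the called changes lay between 0.29 and 1.06. Rps24 went from 1154 and 1249 TPM to 1605 and 1694 TPM (log2 0.46, limma adjusted p = 0.024). Rplp0, the stalk protein often used as a reference gene, went from 1063 and 1130 TPM to 1367 and 1525 TPM (log2 0.40, limma adjusted p = 0.025). Rps4x, the X-linked small subunit gene, went from 923 and 890 to 1115 and 1216 TPM (log2 0.36). Rpsa, which also acts as a laminin receptor, went from 1126 and 1166 to 1367 and 1632 TPM (log2 0.38, limma adjusted p = 0.0497). Of the other members with a second known role, Rpl5 (log2 0.26) and Rpl11 (0.041), which bind Mdm2, Rpl13a (0.34), linked to the GAIT complex, Rps3 (0.36), linked to NFκB, Rps27a (0.24), fused to ubiquitin, and Rpl10 (0.75), of the late 60S, were not called.

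Much of the size of the largest row changes did not remain once copies were counted. For 22 tested members, copies made up at least 10% of the family's TPM, a split chosen after seeing the data. In C498+LPS against LPS 11 of these 22 rows were called (50%), with a median of 0.55, and all 22 were above 0. Summed with their copies, the same 22 gave 3 calls and a median of 0.21. For the other 61 members the rows gave 15 calls (24.6%) and a median of 0.29, and the family sums gave 14 calls and a median of 0.29. Across the 83 families the sums gave 17 called higher and none lower, a share of 20.5%, with a median of 0.27, against 9.09% and 7.72% of all genes. Of those 17, 16 were also called as rows. The one that was not was Rps28, whose copy Gm10443 went from 1392 and 1509 to 2647 and 2310 TPM.

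**Figure D3:**
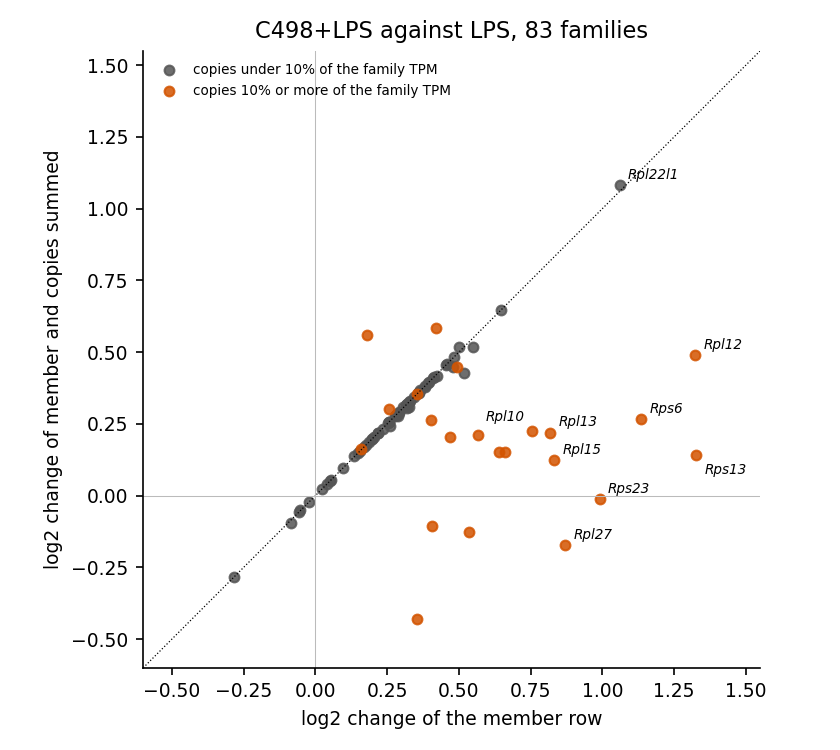
Log2 change in C498+LPS against LPS of the member row (horizontal) and of the member summed with its copies (vertical) for 83 families; the dotted line marks equal values. Members with copies under 10% of the family lie along the line, and those with more, such as Rps13, Rps23, Rps6 and Rpl27, lie mainly below it.

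Rps6 and its copy moved in opposite directions. Rps6-ps4 went from 619 and 529 TPM with LPS to 185 and 184 TPM with C498+LPS (log2 -1.63, SE 0.13, limma adjusted p = 0.00071), while the Rps6 row rose. The Rps6 row held 44.2% and 49.8% of the family's TPM with LPS, 84.8% and 86.6% with C498+LPS, and 64.8% and 71.2% in NC. The summed family stood at 1082 ± 38.7 and 1304 ± 115 TPM (SD, n = 2 each, log2 0.27, limma adjusted p = 0.098). Rps13 held 8.16% and 9.98% of its family with LPS and 17.5% and 24.4% with C498+LPS, and the sum had log2 0.14 (limma adjusted p = 0.38). For Rps23 the sum stood at 2974 ± 72.4 and 2951 ± 173 TPM (SD, n = 2 each, log2 -0.012), so the row's near 2-fold change was not seen in the family.

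Rpl12 kept its call in the family sum: 1111 and 1130 TPM with LPS against 1419 and 1744 TPM with C498+LPS (log2 0.49, SE 0.11, limma adjusted p = 0.020). The Rpl12 row itself was only 1.92% to 4.58% of the family in group means, and Gm10275 held nearly all the rest. The copies Rpl27-ps3 and Gm11518 of Rpl27 were listed at the same TPM in every sample, and both entered its sum (log2 -0.17, limma adjusted p = 0.24). Rpl22l1 had no sizeable copy and its family change was 1.08. The Rps29 family had a copy, Gm14303, listed at 0 in NC replicate 1 and C498 replicate 1 and at 1939 to 3060 TPM in the other 6 samples. Over the 25 copies with a mean of at least 100 TPM, 2 were called higher and 3 lower, near the 9.08% and 7.70% of all genes, and the median change was -0.13. How the reads were divided between rows was done by the authors' software, and its part in the row changes was not tested.

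**Figure D4:**
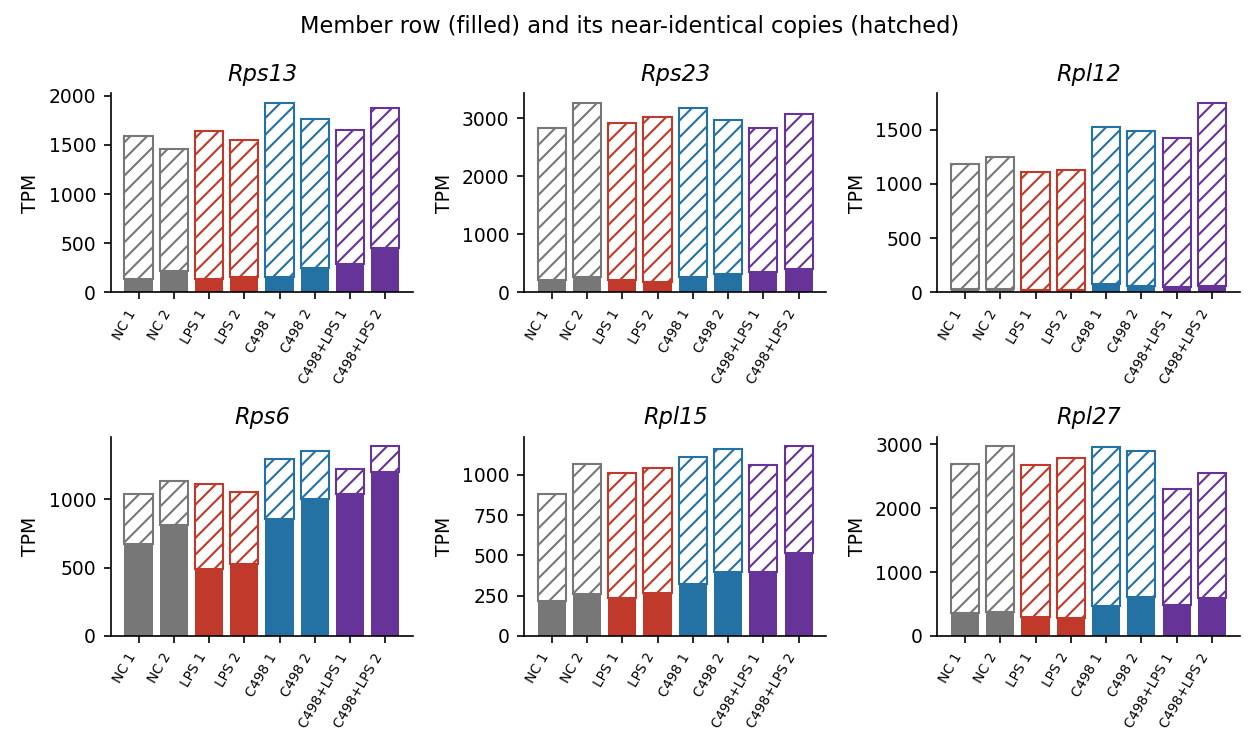
TPM of 6 members (filled) and of all their near-identical copies (hatched) in each of the 8 samples, vertical axes from 0 and scaled separately. The filled part grows from LPS to C498+LPS in every panel, while the total for Rps23 stays near 2951 to 2974 TPM in group means.

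The count of 26 also depended on single libraries. It was 3 (3.49%) without LPS replicate 1, LPS replicate 2 or C498+LPS replicate 2, where 3.31%, 2.82% and 3.28% of all genes were called higher, so in those fits the members' share lay near the background. It was 16 without C498+LPS replicate 1 (18.6%, against 6.51% of all genes) and 9 without either C498 sample (10.5%, against 6.23% and 6.20%), while the median stayed between 0.22 and 0.42 when single samples were left out. Rpl12 and Rps6 were called without each of the 8 samples in turn. Centred on the median gene, 5 members were called higher (5.81%, against 8.84% of all genes): Rpl12, Rps6, Rpl22l1, Rps23 and Rpl27. Without the variance trend the count was 7 (8.14%, against 8.92%).

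With C498 present, few of these genes were called in response to LPS. In C498+LPS against C498 no member was called higher and 1 lower, against 4.51% and 11.7% of all genes, and the median was 0.051 (all genes -0.18). The 1 was Rps27rt, which went from 507 and 268 to 129 and 95.5 TPM (log2 -1.72, SE 0.30, limma adjusted p = 0.011) and was past 2-fold, where 5.64% of all genes were called and past it. Rpl37rt had log2 -1.60 with overlapping groups and was not called. Without C498 replicate 1 or C498+LPS replicate 2 Rps27rt was not called. With a block for the replicate number, 4 members were called higher (4.65%, against 5.64% of all genes). Centring each sample on its median gene raised the members' median, as given in the last section. Summed families gave 0 called in either direction, against 4.59% and 11.8% of all genes. At an unadjusted limma p under 0.05 there were 3 of 83 families and 3888 of 12104 genes.

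Whether the response to LPS differed with C498 was asked by the interaction term. No member was called by limma in either direction, and 0.0738% and 0.418% of all genes were called higher and lower. At an unadjusted limma p under 0.05 there were 13 of 86 members and 1351 of 12189 genes. The median interaction of the members was 0.22 (all genes -0.026), and 0.13 in family sums. In this fit a difference between the 2 responses was not shown for a single ribosomal protein gene.

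Genes of the same machinery were taken from lists chosen by function. Over all tested genes 9.08% were called higher and 7.70% lower in C498+LPS against LPS, 9.29% and 6.19% in C498 against NC, and 9.84% and 19.8% in LPS against NC, and the lists' counts are to be read against these. The list of other TOP mRNAs shares 5 genes with the elongation factors and 4 with the initiation factors, so these lists are not separate counts. Of 20 other TOP mRNAs, 8 were called higher and 1 lower in C498+LPS against LPS, and 6 higher in C498 against NC. Npm1, a nucleolar chaperone of ribosome assembly, had log2 0.94 in the former, and Nap1l1, a histone chaperone, 0.81. Pabpc1, the poly(A)-binding protein, had log2 0.78 and Hnrnpa1 0.65 in C498 against NC. Of 10 elongation factors 3 were called higher in each of LPS against NC, C498 against NC and C498+LPS against LPS. Eef2, the translocase, had log2 0.54 in C498 against NC, and Eef1b2 0.76 in C498+LPS against LPS.

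Initiation factors gave 3 of 37 higher in C498+LPS against LPS and 5 of 37 in C498 against NC, led in both by Eif5 (log2 0.95 in the former). Of 70 ribosome biogenesis genes 9 were higher in C498+LPS against LPS, led by Gnl3 (1.00) and Ncl (0.98), and 7 in C498 against NC. These counts for initiation and biogenesis lay near the shares over all genes. Of 8 tested genes of the Myc network 4 were higher and 1 lower in C498+LPS against LPS. Myc had log2 1.54, at 6.22 and 7.61 TPM with LPS. Among 21 tested regulators of TOP mRNA translation 3 were higher and 1 lower, led by Ddit4, an inhibitor of mTORC1 (log2 2.34), and Pdcd4 (1.52). Rps6ka1, a kinase, fell by 0.85 on the log2 scale.

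Of 78 mitochondrial ribosomal proteins, which belong to the ribosome of the organelle, 29 were called lower and none higher in LPS against NC (37.2%), with a median of -0.34, where 19.8% of all genes were called lower and their median was -0.17. Mrpl41 had log2 -0.94. With C498 alone 11 were lower and 1 higher (6.19% and 9.29% of all genes). In C498+LPS against LPS 3 were lower and 1, Mrps6 (log2 1.00), higher (7.70% and 9.08% of all genes).

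**Figure D5:**
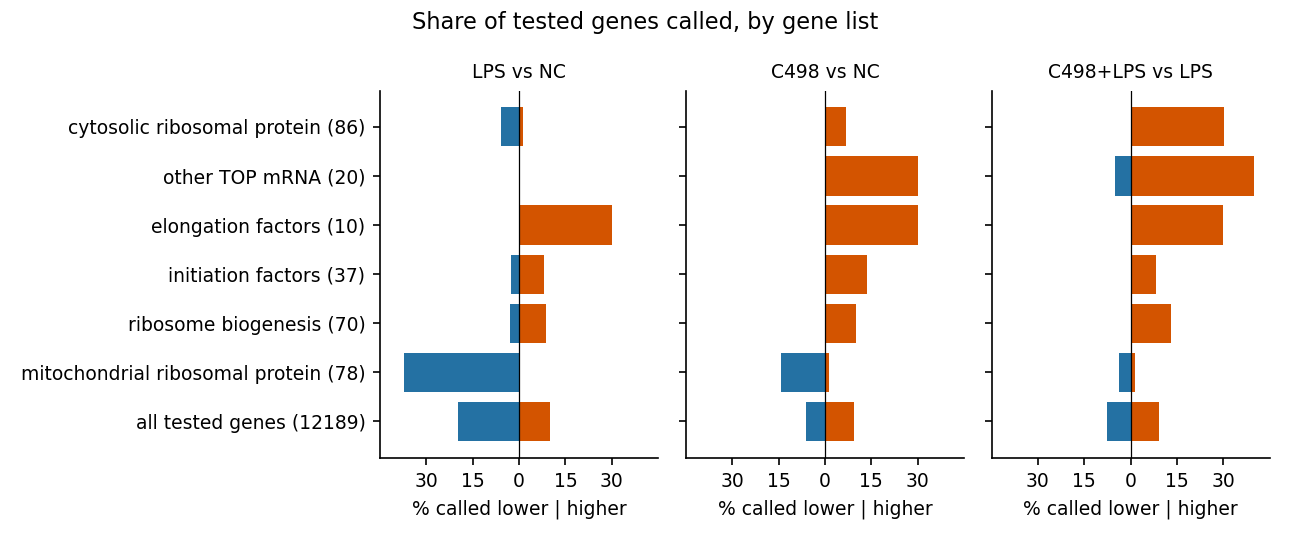
Percent of tested genes called higher (right) and lower (left) in 3 comparisons for 6 gene lists and all tested genes, with the number tested in parentheses. In C498+LPS against LPS the bar for cytosolic ribosomal proteins is 30.2% to the right, and in LPS against NC the bar for mitochondrial ribosomal proteins is 37.2% to the left.

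Promoter letters were also set against the response. A TOP tract was found for 14 of 23 members called higher in C498+LPS against LPS (60.9%) and 23 of 41 other tested members (56.1%), and CCGGAAG for 30.4% and 43.9%. The letters GGGCGG were present for 78.3% and 53.7%, against 38.2% of all genes, and TATAAA for 17.4% and 7.32%, against 15.7%, both read as for CCGGAAG. The share of a family's TPM in the member row and the row's change had a Spearman rho of -0.52 over 83 members, which share libraries and the same division of reads. For member level and member change it was -0.23 over 86 members, and for family level and family change -0.066.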

How the data were processed

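RNA of 8 samples in 4 groups was sequenced as read pairs by Illumina. Per the labels, the authors used fastp, HISAT2, StringTie and RSEM, and deposited TPM per gene, scaled to the same total in each sample. RSEM shares reads that fit several transcripts by estimate. Versions, genome build and annotation are not given in the sources used here. Depth is unknown, and the number of samples limits precision. The deposited columns of group means were not used.

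Genes of mean TPM at least 1 (12189 of 55801) were fitted as log2(TPM + 1), which understates changes of low genes, with limma 3.58.1 in R 4.3.3: 1 mean per group, all 8 samples, moderated variances with a trend. Code was tested on simulated data. Copies were pseudogene, -ps, Gm and member transcripts matched by BLAST 2.17.0 to GENCODE M21 member transcripts (at least 90% identity over 80% of the copy). Coordinates are GRCm38 by Ensembl identifier. Promoters came from RefSeq; 69 members matched. Named were the 8 most abundant members, the 5 largest called changes per direction, paralogue pairs, members with second roles, untested members, and the 2 largest called changes per direction in each other list, of which examples are printed. Rps24, Rplp0, Rps4x, Rps28, Rpl31, Rpl37rt, Rpl38 and Rps29 were named after their values were seen. The members and lists were chosen with earlier results of these data known. The values of 1 gene in the lists are not reported here, and it stays in the lists' counts.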

Additional observations from a re-analysis of the deposited data

How the results depend on the processing

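The summing of copies was chosen after seeing the data. Counts are to be read against the share of all genes called in the same fit. With all 8 samples and no replicate block, the members' shares lay under it in LPS against NC, C498 against NC and C498+LPS against C498. In C498+LPS against LPS the members' shares were 7.87% against 3.54% with no filter and 15.1% against 7.91% with only the groups compared. In LPS against NC (1 higher, 5 lower), no filter gave 0 and 0, centring 0 and 1 with a median of -0.0045, quantile normalization 11 lower, rescaling over other genes 0 higher, no variance trend 0 and 2, only the groups compared 0 and 1, and summed copies 3 lower. Without single samples, 0 to 1 were higher, 0 to 23 lower and the median ran from -0.32 to -0.045. In C498 against NC (6 and 0), no filter gave 2 higher, centring 1 and 1, quantile 1 lower, no trend 1 higher, only the groups compared 1 higher, and summed copies 1 lower; without single samples 0 to 5 were higher and 0 to 3 lower, with medians of -0.047 to 0.25. In C498+LPS against LPS (26 higher), no filter gave 7, centring 5, no trend 7, only the groups compared 13, summed copies 17 and single samples left out 3 to 31. In C498+LPS against C498 (0 and 1), centring gave a median of 0.27, quantile 3 lower, only the groups compared and summed copies 0 lower, and single samples left out 0 to 1 lower. Deviations of samples with the same number correlated at 0.040 to 0.17 over all genes in the 6 pairs of groups and at -0.436 to 0.521 over the members, so the numbers were not taken as pairs. Such a correlation removes an offset shared by the members, and the median member was higher in replicate 2 of every group. It therefore cannot settle whether the number marks a batch. With the replicate block, 12 members were lower in LPS against NC, 12 higher in C498 against NC, 4 higher in C498+LPS against C498, 1 higher in the interaction and 36 higher in C498+LPS against LPS; it ended none of the 38 named calls. The mean share was 11.01% in NC, 9.87% in LPS, 11.7% in C498 and 11.8% in C498+LPS with -ps rows, 12.1%, 10.9%, 12.8% and 13% with copies, and over other genes 8.96% in LPS, 11.1% in C498 and 11.4% in C498+LPS; without mt- genes it was 10.3% in C498. Summing copies turned the named changes of Rps23 (-0.012) and Rpl27 (-0.17) in C498+LPS against LPS. The causes of these differences were not tested. With 1 sample left in a group, that sample was assumed to vary like the others. Depth is unknown, so no counting error can be given.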
